A study of Homo sapiens with 2 samples.

Results

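hsa-miR-221-3p and hsa-miR-222-3p, the 3′ arms of neighbouring hairpins on the X chromosome, were followed as 2 of the 407 miRNAs counted in a pulldown of the long non-coding RNA SNHG15. Both were picked by name, and both had at least 20 reads in a library, the minimum used for comparisons. The cells were BT549, a long-used cell line from a human breast tumour, made to overexpress SNHG15 carrying MS2 hairpins. These RNA loops of a bacteriophage are bound by the MS2 coat protein (MCP). Lysate met either amylose resin loaded with MCP fused to maltose binding protein (MBP), here the pulldown, or amylose resin alone, here the control, and the small RNA left on each resin was sequenced. The SNHG15-MS2 transgene was present in the cells of both libraries, and its vector and clones are not described in the labels. Each resin gave 1 library, so no difference below has a replicate check. Protein-bound RNA and SNHG15-bound RNA cannot be told apart, since the resins also differ in MBP-MCP itself.

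A miRNA is cut from a hairpin, loaded into an Argonaute protein and guided to target RNAs mainly through its seed, bases 2 to 8. miR-221 and miR-222 share a seed and are known as a pair that is abundant in basal-type and mesenchymal breast cancers and low in luminal ones. Their known targets include ESR1 (the estrogen receptor), CDKN1B (the cell cycle inhibitor p27), KIT and TIMP3.

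The mature sequences show what the pair has in common, with the seed in capitals (RefSeq, GRCh38.p14, 5′ to 3′).
miR-221-3p: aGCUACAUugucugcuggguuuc
miR-222-3p: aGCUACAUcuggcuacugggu
The first 8 bases are identical, and a run of 6 bases, CUGGGU, recurs from base 15 of miR-221-3p and base 16 of miR-222-3p. Between these stretches the sequences differ, so that a read of either full length names 1 of them. Among 2370 mature human miRNAs in the RefSeq table, these 2 were the ones that carried the seed GCUACAU. The miRNAs are 23 and 21 bases long, with GC contents of 47.8% and 52.4%.

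The hairpins show from where each arm is cut, with the 3′ arm in capitals.
MIR221: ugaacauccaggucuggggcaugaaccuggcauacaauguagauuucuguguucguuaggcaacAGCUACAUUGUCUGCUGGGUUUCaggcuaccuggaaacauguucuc
MIR222: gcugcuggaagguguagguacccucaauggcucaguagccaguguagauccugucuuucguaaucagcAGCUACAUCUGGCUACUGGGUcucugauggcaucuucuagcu
MIR221 lies at chrX:45746157-45746266 and MIR222 at chrX:45747015-45747124, both on the minus strand of GRCh38, with 748 bases between them. Both fall within MIR222HG, a lincRNA gene at chrX:45745211-45770274 on the same strand, in the intron between exon 1 and exon 2 of transcript MIR222HG-201 (GENCODE 29). On this strand MIR222 comes first, 23150 bases from the start of the host gene.

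Sequencing of the pulldown gave 202560 miRNA reads, 1.82 times the 111414 of the control. Of the 407 miRNAs, 161 reached 20 reads in a library and were compared. Levels are given as reads per 1000000 miRNA reads (RPM), and ratios as pulldown RPM over control RPM. Intervals are exact 95% Clopper-Pearson intervals of the read numbers and cover counting error only. The median log2 ratio of the 161 was −0.16, and −0.04 over the 46 with at least 500 reads in all. RPM gives shares, and the amount of RNA on the resins was not analysed here, so a higher share does not show a larger amount.

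miR-221-3p was by far the more abundant of the pair and stood higher in the pulldown. It had 1014 reads in the pulldown library, which is 5006 RPM (4703 to 5323), and 451 reads in the control library, which is 4048 RPM (3684 to 4439). These 2 intervals did not overlap. By reads it ranked 26 in the pulldown and 30 in the control. The ratio was 1.24 (1.11 to 1.38), a log2 ratio of 0.31 that lay 0.46 above the median of all 161. Of the other 160 miRNAs, 22 had a higher log2 ratio and 138 a lower one. Counting intervals lay wholly above 1 for 18 of the 161, 11.2%, and miR-221-3p was among these. That share was 22.4% with TMM and 27.3% with DESeq2 scaling, again with miR-221-3p among them. Intervals narrow as reads grow, and most of the 161 had fewer reads than miR-221-3p. These shares, like those set beside the lists below, mix miRNAs of unlike depth and are no background for its own. miR-221-3p did not reach the rule of size, at least 2-fold with at least 20 reads. Of the 161, 5.59% met it, 2.48% by being higher and 3.11% by being lower. With a minimum of 50 reads 0 miRNAs met it, so 5.59% is no background for miRNAs of the depth of miR-221-3p.

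miR-222-3p was sparse and near balance between the resins. It had 51 reads in the pulldown library, 252 RPM (187 to 331), and 30 reads in the control library, 269 RPM (182 to 384), with intervals that overlapped over most of their length. Its ranks were 105 and 109. The ratio was 0.935 (0.584 to 1.52) and the log2 ratio −0.10, which is 0.06 above the median of the 161. Of the other miRNAs 76 had a higher log2 ratio and 84 a lower one. By counting error alone, the interval still held an excess of up to 1.52-fold and a deficit of up to 1.71-fold in the pulldown.

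**Figure D1:**
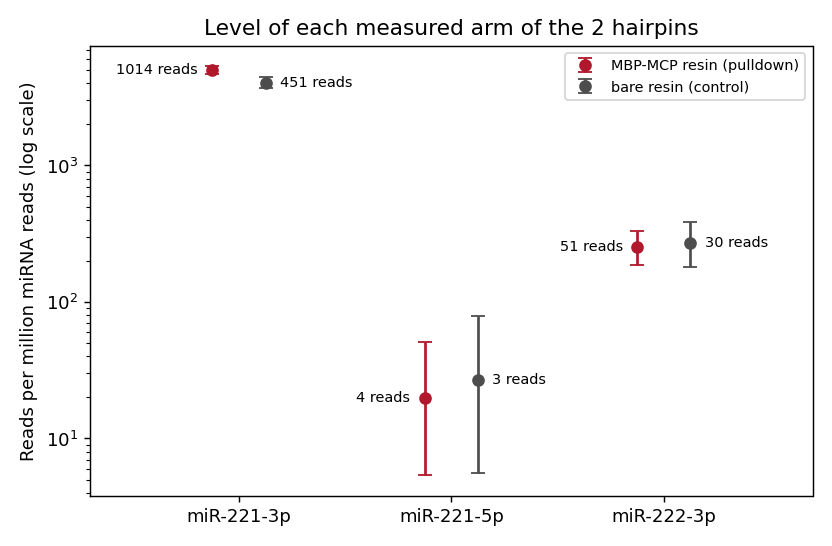
Reads per 1000000 (log axis) of each measured arm in the pulldown and control libraries, with exact 95% counting intervals and read numbers. The intervals of miR-221-3p, at 1014 and 451 reads, do not overlap, while those of miR-222-3p and miR-221-5p do.

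The passenger strand of MIR221, the 5p arm, was close to the detection limit. miR-221-5p had 4 reads in the pulldown and 3 in the control, and so did not enter the comparisons. The 3p arm had 254 reads for each 5p read in the pulldown and 150 in the control. The 5p arm therefore made up 0.393% (0.107 to 1.0) of the arm reads of MIR221 in the pulldown and 0.661% (0.136 to 1.92) in the control. The ratio of these 3p-to-5p ratios, 1.69, had an interval of 0.246 to 10.0, so that no difference in arm use between the resins was detectable. miR-222-5p (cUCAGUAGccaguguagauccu, seed in capitals) does not carry the seed of the 3p arms and was not among the 407 miRNAs counted.

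The pair's balance within a library does not depend on how libraries are scaled. In the pulldown library miR-221-3p had 19.9 reads for each read of miR-222-3p (15.0 to 26.9), and in the control library 15.0 (10.4 to 22.5). The intervals overlapped, and the ratio of the ratios was 1.32 (0.802 to 2.15). The 2 miRNAs were thus not shown to differ in their share on the resins, although the counting interval excluded 1 for miR-221-3p and not for miR-222-3p. Together they held 1065 reads, 0.526% (0.495 to 0.558) of the pulldown library, and 481 reads, 0.432% (0.394 to 0.472) of the control library. The combined ratio of 1.22 (1.09 to 1.36) is almost wholly that of miR-221-3p, which supplied 95.2% of the pair's pulldown reads and 93.8% of its control reads.

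The pair was also counted as a seed family. RefSeq sequences were matched by name to 321 of the 407 miRNAs, which carried 267 seeds. By reads per seed, GCUACAU ranked 20 in the pulldown and 21 in the control. The seed of the let-7 family, GAGGUAG, ranked first with 47.0% and 45.3% of the libraries. Among the matched miRNAs in the pulldown, miR-30a-5p, miR-30c-5p and miR-30e-5p, with seed GUAAACA (1085 and 587 reads together), stood just above the pair. The other miR-30 members miR-30d-5p (143 and 105 reads) and miR-30b-5p (61 and 34) were not matched. The place of the miR-30 family leaves out their reads. Just below it was miR-128-3p (791 and 632 reads). miR-151a-3p (857 and 510 reads) lay between the pair and miR-128-3p in the pulldown and above the pair in the control. It was not among the matched miRNAs, so its seed has no place in these ranks. The order among such neighbours differed between libraries: in the control miR-128-3p, with 632 reads, stood above the pair, with 481.

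The ratio of miR-221-3p was set beside those of the 23 miRNAs whose pulldown reads were within 2-fold of its own, since these have counting errors of like size. Their log2 ratios ran from −0.72 for miR-27a-3p to 0.68 for miR-92a-3p, with a median of 0.02. miR-221-3p stood near the upper end, with 2 of the 23 above it and 21 below. The 2 above were miR-92a-3p of the miR-17-92 cluster, with a ratio of 1.61 (1.44 to 1.79), and miR-10a-5p, encoded in the HOXB cluster, with 1.26 (1.14 to 1.39). The interval of miR-10a-5p overlapped that of miR-221-3p, and the interval of miR-92a-3p did not. Directly beside it in abundance were miR-23a-3p, with 1017 and 565 reads and a ratio of 0.990 (0.892 to 1.10), and miR-26b-5p, with 972 and 556 reads and a ratio of 0.962 (0.866 to 1.07). One place further, miR-27b-3p had a ratio of 0.727 (0.663 to 0.797), below 1. For let-7g-5p, whose 451 control reads equal those of miR-221-3p, it was 1.16 (1.03 to 1.30). Of the 23, miR-25-3p, let-7g-5p, miR-182-5p, miR-196a-5p, miR-10a-5p and miR-92a-3p had intervals wholly above 1, as did miR-221-3p. Intervals lay wholly below 1 for miR-27a-3p, miR-9-5p, miR-128-3p, miR-27b-3p, miR-7-5p, miR-24-3p and a predicted miRNA.

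Around miR-222-3p the scatter was wider. The 61 miRNAs with pulldown reads within 2-fold of its own had log2 ratios from −1.14 for miR-9-3p to 1.03 for miR-92b-5p, with a median of −0.22; 29 stood above miR-222-3p and 32 below. Its direct neighbours were miR-423-3p, with 52 and 28 reads and a ratio of 1.02 (0.633 to 1.68), and miR-92b-5p, with 49 and 13 reads and a ratio of 2.07 (1.11 to 4.17). miR-500a-3p (54 and 35 reads, ratio 0.849) and miR-197-3p (48 and 17 reads, ratio 1.55) came next, both with intervals that included 1.

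**Figure D2:**
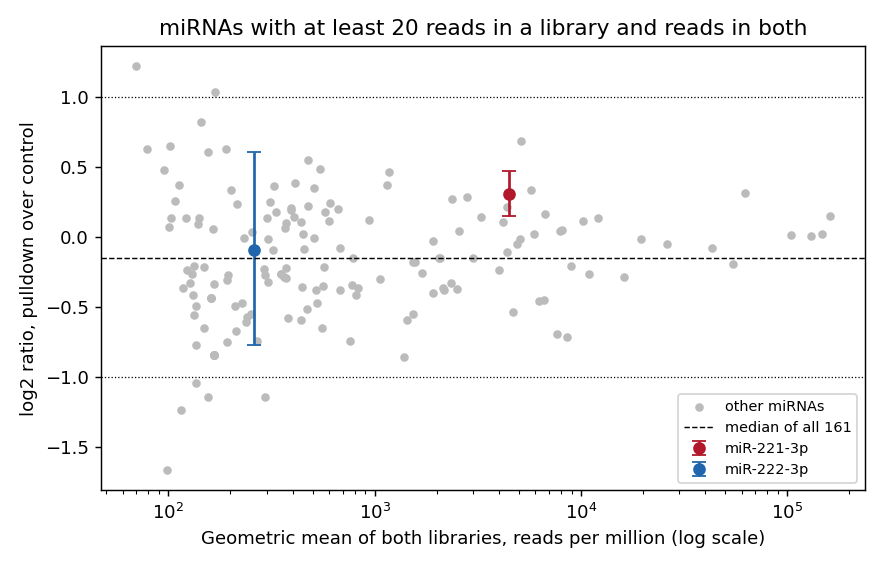
Log2 ratio of pulldown over control against abundance (log axis) for the 159 compared miRNAs that had reads on both resins; bars are 95% counting intervals of the pair, the dashed line is the median and the dotted lines mark 2-fold. miR-221-3p, at 0.31, lies above the median with its whole interval, and miR-222-3p, at −0.10, lies close to it.

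The miRNAs whose log2 ratio was nearest to that of miR-221-3p, by absolute difference over the 2 libraries, were let-7b-5p (difference 0.01), miR-196a-5p (0.02) and miR-10a-5p (0.02). For let-7b-5p, of the family that represses RAS and HMGA2, the reads were 14131 and 6248. For miR-196a-5p, which is encoded in HOX clusters and represses HOX genes, they were 629 and 284. Nearest to miR-222-3p were a numbered predicted miRNA (63 and 37 reads), miR-23b-3p (89 and 52) and miR-21-5p (8475 and 4937), the last at a difference of 0.013. With 1 ratio per miRNA such likeness is a description of these libraries.

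Scaling moved both values together. The log2 ratio of miR-221-3p was 0.50 (0.34 to 0.66) with TMM factors and 0.58 (0.42 to 0.75) with DESeq2 size factors, both of which assume that most miRNAs are balanced. It was 0.43 (0.27 to 0.59) with totals that leave out the 5 most abundant miRNAs. In each of the 6 scalings tried its interval lay above 0. The log2 ratio of miR-222-3p changed sign, from −0.10 to 0.10 with TMM factors, 0.18 with DESeq2 size factors and 0.03 without the 5 most abundant miRNAs, and its interval included 0 in each of the 6. These factors shift every miRNA alike, by 0.20 for TMM, 0.28 for DESeq2 and 0.12 without the 5 most abundant, and so leave the distance of both miRNAs to the median as given above.

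**Figure D3:**
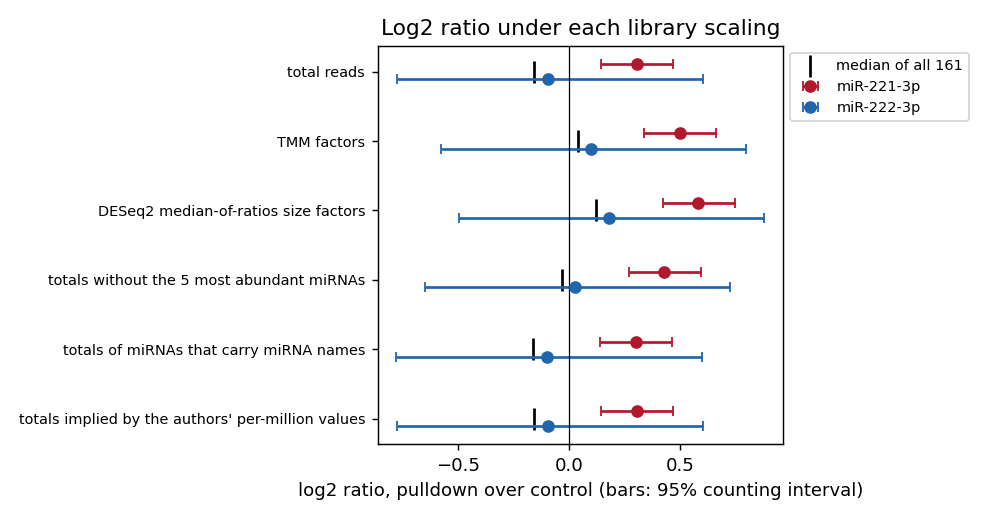
Log2 ratio of each miRNA with its 95% counting interval under 6 library scalings; black ticks mark the median of all 161 miRNAs. miR-221-3p stays above 0, from 0.30 to 0.58, while miR-222-3p runs from −0.10 to 0.18 and its interval includes 0 throughout.

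The authors' deposited table calls neither of them different, against 26 called of 407, 6.39%. It gives miR-221-3p a log2 fold change of 0.31, a p-value of 0.0233 and an adjusted p-value of 0.365. For miR-222-3p the authors' deposited table has a log2 fold change of −0.10, a p-value of 0.849 and an adjusted p-value of 1. These p-values came out of edgeR's exact test on these counts with TMM factors and the variation between replicates set to a coefficient of 0.1. That variation is not measured by 1 library per resin. The fold changes are by total reads, so the p-values do not belong to the fold changes beside them. With TMM factors the log2 ratio was 0.50 for miR-221-3p and 0.10, of opposite sign, for miR-222-3p.

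The unequal reads of miRNAs cut from a shared transcript were set beside other clustered miRNAs. A list of 37 pairs encoded in common clusters was used, and 23 of these, the present pair included, passed the minimum of 20 reads for both partners. Some of these miRNAs, such as miR-16-5p and miR-24-3p, have further hairpins elsewhere, so their reads need not come from the cluster. The pairs are not separate units. The same reads of miR-16-5p, miR-23a-3p, miR-24-3p, miR-27a-3p and miR-29b-3p each enter more than a single pair. In the pulldown the more abundant miRNA of the other 22 pairs had between 1.26 and 434 times the reads of its partner, with a median of 4.57. The 19.9-fold imbalance of miR-221-3p over miR-222-3p was exceeded in 4 of the 22: miR-16-5p with miR-15a-5p, let-7f-5p with miR-98-5p, miR-16-5p with miR-15b-5p, and miR-191-5p with miR-425-5p.

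Between the resins, the log2 ratios of miR-221-3p and miR-222-3p differed by 0.40. The median absolute difference over the other 22 pairs was 0.37, and 9 of them differed by more. The largest was that of miR-92a-3p and miR-19b-3p of the miR-17-92 cluster, 0.91, with 1319 and 452 against 70 and 45 reads. The smallest was that of miR-125a-5p and miR-99b-5p, 0.09, with 2550 and 1282 against 1622 and 868 reads. The counting interval of the difference excluded 0 in 9 of the 23 pairs, the present pair not among them. These 9 include every pair among miR-23a-3p, miR-24-3p and miR-27a-3p, which share reads.

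**Figure D4:**
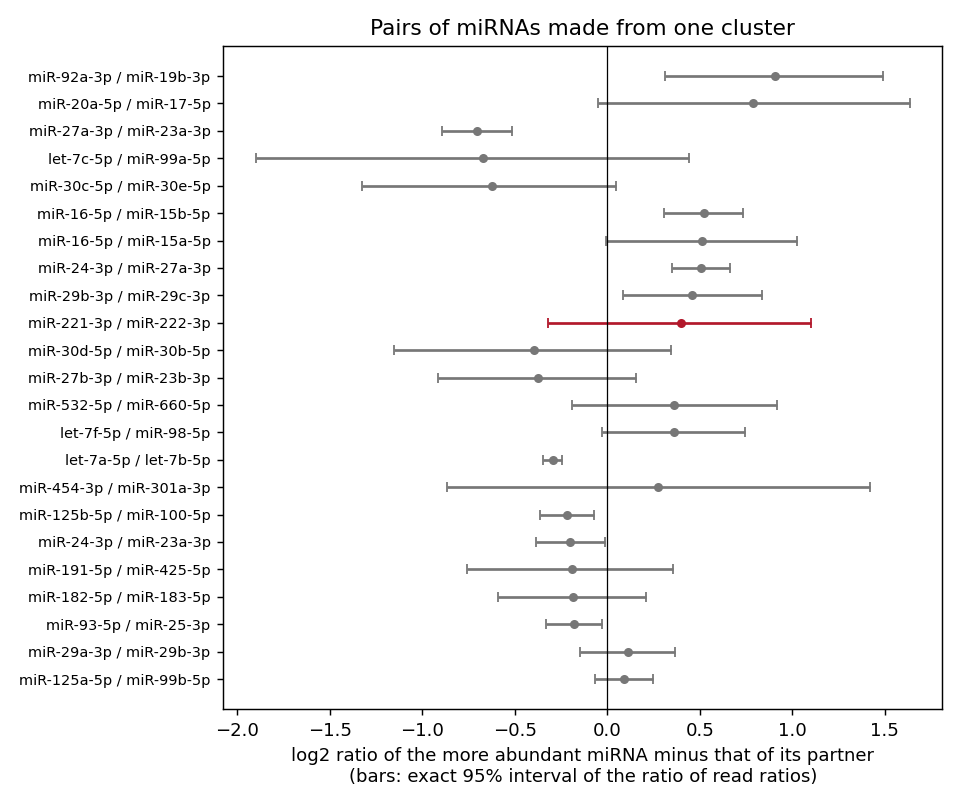
Difference in log2 ratio (pulldown over control) between the more abundant miRNA of each clustered pair and its partner, with exact 95% counting intervals, for 23 pairs ordered by size. The pair of miR-221-3p and miR-222-3p (red), at 0.40, sits near the middle and its interval includes 0.

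Other miRNAs of the same tumour type and of the same targets were read from lists, beside the median of −0.16 over all 161. The lists were chosen with earlier results of these data known. Of 14 other miRNAs known from basal or mesenchymal breast cancer, 11 were in the table, holding 11.8% of all reads in the pulldown and 13.4% in the control. Most of these reads were those of miR-125b-5p and miR-21-5p. Of 14 luminal or epithelial names, where miR-375 is listed also as miR-375-3p, 6 were in the table, with 0.838% and 0.796%. The epithelial miR-200a-3p and miR-203a-3p had 1 read in each library. BT549 is classed as a basal-type line with mesenchymal traits. Of the 10 basal miRNAs with 20 reads, 0 reached 2-fold, against 5.59% of all 161 (0 with a minimum of 50 reads). miR-155-5p, known from activated lymphocytes and basal tumours, had 265 pulldown and 113 control reads, and its ratio of 1.29 had an interval above 1 (1.03 to 1.62). By total reads, intervals lay below 1 for 5 of the 10, against 23.6% of all 161. The lowest were miR-9-5p, known from neurons (1215 and 1081 reads, ratio 0.618), and miR-143-3p (90 and 78, ratio 0.635). The other three were miR-31-5p (2030 and 1342, ratio 0.832), miR-125b-5p (10378 and 6539, ratio 0.873) and miR-21-5p, abundant in many tumours (8475 and 4937, ratio 0.944). This count rested on read depth: miR-22-3p of the same list, at 134 and 78 reads, had a ratio of 0.945 with an interval that included 1. It also rested on the scaling. With TMM factors 2 intervals of the 10 lay below 1 (miR-9-5p and miR-143-3p) and 3 above, against 9.32% and 22.4% of all 161. With DESeq2 size factors 1 lay below (miR-9-5p) and 4 above, against 7.45% and 27.3% of all 161. miR-21-5p turned to a ratio of 1.08 (1.04 to 1.12) with TMM factors. The list's median log2 ratio was −0.14, which turned to 0.06 with TMM factors. For the luminal list, where 3 miRNAs had 20 reads, the median was 0.11. By total reads 0 of the 3 intervals excluded 1, against 34.8% of all 161. With TMM or DESeq2 factors 2 of the 3 lay above 1, against 22.4% and 27.3% of all 161. The reads were 877 against 448 for miR-26a-5p, 696 against 348 for miR-30a-5p and 121 against 87 for miR-342-3p.

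Of the listed miRNAs that share targets with the pair, 4 had 20 reads. Among 4 others known to repress CDKN1B, 3 had 20 reads and a median of −0.27. For miR-24-3p, at 1692 and 1079 reads, the ratio was 0.863 (0.799 to 0.932). For miR-152-3p, at 119 and 110 reads, it was 0.595 (0.455 to 0.778), and for miR-181a-5p, at 36 and 24 reads, 0.825 (0.479 to 1.45). Of 5 others known to repress ESR1, 1 had 20 reads, miR-22-3p with 134 against 78 (ratio 0.945, 0.710 to 1.27), and miR-18a-5p had 19 against 8. By total reads all 4 ratios were below 1, as was the median of all 161, and 2 of the 4 intervals lay below 1, against 23.6% of the 161. With TMM factors miR-22-3p turned to 1.08, and with DESeq2 size factors it was 1.15 and miR-24-3p 1.05. Under both scalings the interval of miR-24-3p included 1. That of miR-152-3p alone stayed below 1, as did those of 9.32% of the 161 with TMM and 7.45% with DESeq2. The count of these 4 that reached 2-fold was 0, against 5.59% of all 161 (0 with a minimum of 50 reads).

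Of 36 other miRNAs listed as encoded on the X chromosome, 24 were in the table and 10 had 20 reads. Their median log2 ratio was −0.22, from −0.61 to 0.82, and 0 of the 10 reached 2-fold, against 5.59% of all 161 (0 with a minimum of 50 reads). With DESeq2's factors the median turned to 0.05. The 3 most abundant were miR-532-5p (396 against 242 reads, ratio 0.900), miR-361-5p (150 against 92, ratio 0.897) and miR-98-5p (140 against 98, ratio 0.786), all with intervals that included 1. By total reads 1 of the 10 intervals lay below 1, against 23.6% of all 161. It was that of miR-660-5p (80 against 63 reads, ratio 0.698, 0.496 to 0.988), and with TMM factors it included 1. With TMM or DESeq2 factors 1 of the 10 lay above 1, against 22.4% and 27.3% of all 161. This was miR-374a-5p (39 against 12 reads), with a TMM ratio of 2.05 (1.05 to 4.29). With 1014 reads miR-221-3p had more pulldown reads than any of these 10.

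A match to the shared seed was searched in SNHG15 itself, a lincRNA gene at chr7:44983023-44986961 on the minus strand of GRCh38. The search used the transcript strand of its 10 transcripts in GENCODE 29, 505 to 3116 bases long. The site for bases 2 to 8 is ATGTAGC, and that for bases 2 to 7 is TGTAGC, which the longer one contains. Neither was found in any of the 10 transcripts. Among 7938 lncRNA transcripts of like length to SNHG15-203 (0.8 to 1.2 times its 982 bases), 2.94% held the longer site and 12.2% the shorter, so most such transcripts lack both. For comparison, 4 of 119 measured miRNAs with sequences and 20 reads had a match to bases 2 to 8 in SNHG15-203, 3.36%. The labels do not name the transcript in the construct.

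In SNHG15-203, taken as an example, a stretch of the greatest length that pairs without a gap began at base 541 for both miRNAs; other stretches of equal length were not listed. The transcript reads as follows with the paired bases in capitals.
miR-221-3p, SNHG15-203 bases 533 to 556: tgtccctgACCCAGCAcatggcac
miR-222-3p, SNHG15-203 bases 533 to 554: tgtccctgACCCAGcacatggc
For miR-221-3p the stretch covers 8 bases, opposite bases 13 to 20 of the miRNA, and for miR-222-3p 6 bases, opposite bases 16 to 21. Runs of these lengths are common: 26.3% of lncRNA transcripts of like length held 8 bases complementary to miR-221-3p, and 94.4% held 6 complementary to miR-222-3p. In SNHG15-202, the longest of the 10 transcripts at 3116 bases, the greatest length was 9 bases for each miRNA, and the runs listed lay opposite bases 6 to 14 of miR-221-3p and bases 10 to 18 of miR-222-3p, not at one shared stretch. A match of letters is a description of the sequence and not evidence of a site.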

How the data were processed

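Small RNA from MBP-MCP amylose resin and from bare amylose resin was sequenced in 1 library each and grouped by the resin given in the labels. Per the labels' protocols, a mirVana kit isolated the RNA and a QIAseq kit built the libraries. Per the submitters' processing notes the build is GRCh38. How reads were aligned, annotated and collapsed is not stated in the labels. A table of 407 miRNAs holds raw read counts as deposited. The authors' RPM values, headed Tpm in the file, sum to 999655 and 999650 and differ from the RPM computed here by at most 0.0484%. The authors' log2 fold changes, p-values and adjusted p-values come from the same deposited table.

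From the counts, RPM and ratios were computed by total reads, with a prior count of 0.5 in log2 ratios, exact intervals (scipy 1.17.1), TMM factors (edgeR 4.0.16) and median-of-ratios size factors (DESeq2 1.42.0). With 1 library per group no test between the conditions was made. The steps were tested on simulated data. The table had 0 columns of other samples. Named miRNAs were the pair and its arms, the nearest in abundance and in ratio, the 3 most abundant of each list and the extreme clustered pairs; further ones were added with their values known. The miRNAs, lists and pairs were chosen with earlier results of these data known. Alternatives were other scalings, a prior count of 5 and other read minimums. Sequences come from RefSeq (GRCh38.p14) and GENCODE 29.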

Additional observations from a re-analysis of the deposited data

How the results depend on the processing

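The log2 ratio of miR-221-3p kept its direction under all 6 alternatives to the 0.31 reported. It was 0.50 with TMM factors and 0.58 with DESeq2's, both outside its counting interval, and the pair's combined ratio of 1.22 became 1.39 and 1.48. The log2 ratio of miR-222-3p changed sign with TMM factors, DESeq2 size factors and totals without the 5 most abundant miRNAs, always within its counting interval. The ratio of the pair's read ratios was 1.40 with a prior count of 5 against 1.33 with 0.5 (1.32 from the reads alone). The 9 miRNAs at least 2-fold apart became 39 with a minimum of 10 reads, 159 with none and 0 with a minimum of 50 reads, and 7 with TMM or DESeq2 factors. Scaling to the totals implied by the authors' RPM was added after seeing the data and moved no value by its printed digits. Depth limits miR-222-3p, at 51 and 30 reads, and miR-221-5p, at 4 and 3. No paired analysis was possible because each resin has 1 library. Reads without known use of molecular identifiers need not be independent molecules.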
